A study of Mus musculus with 617 samples.

Results

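The mouse Hox genes of the 4 clusters were followed through 617 single cells, from embryonic stem (ES) cells to motor neuron cultures and cells taken from embryos. The members are 38 genes given by name, 10 in Hoxa, 10 in Hoxb, 9 in Hoxc and 9 in Hoxd, out of 43628 gene identifiers in the deposited tables. The values are FPKM, fragments per kilobase of transcript scaled to the size of the library, and a gene was counted as detected in a cell at 1 FPKM or more. Libraries were made from single cells with SMART-seq2 and Tn5 tagmentation.

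The cells fall into 13 groups. A female and a male ES cell line were each sampled in 4 states, and both lines derive from crosses of a CAST/EiJ male with a C57BL/6J female. ES cells were grown with LIF in 2i medium, which holds them in the ground state of pluripotency (60 female and 51 male cells), or with LIF in serum (68 and 52 cells). Epi cells were epiblast stem cell cultures made from the same lines with Activin A and FGF2 (79 and 63 cells). Motor neuron cultures were made by way of embryoid bodies, with SAG, an agonist of smoothened, and retinoic acid, and the protocol is stated to give interneurons as well (39 and 35 cells). The second female Epi culture, after 7 passages, contributed 41 cells. Embryos of the same kind of cross gave 23 cells of the E3.5 inner cell mass and 23 of the E4.5 epiblast, with no sex stated. Epiblast cells at E5.5 came from C57BL/6J crosses, 20 female and 63 male. No group carries an engineered allele in the labels.

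Hox genes encode homeodomain transcription factors, and the order of the genes along each cluster matches the order in which they are used along the body axis. Low paralogue numbers mark the hindbrain and neck, and high numbers mark the trunk, limbs and tail. In early embryos and pluripotent cells the clusters are largely silent under Polycomb repression, and retinoic acid opens them from the low-numbered end. In motor neurons, the set of Hox genes that a cell uses fixes its position and its pool. Hox proteins bind DNA together with cofactors of the Pbx, Meis and Pknox families, and Cdx factors activate trunk Hox genes.

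On the GRCm38 assembly the Hoxa members span chromosome 6 from 52162417 to 52260880 on the minus strand, over 98.5 kb. The Hoxb members span chromosome 11 from 96194316 to 96368256 on the plus strand, over 173.9 kb, and the Hoxc members chromosome 15 from 102921103 to 103036852 on the plus strand, over 115.8 kb. The Hoxd members span chromosome 2 from 74668310 to 74765142 on the plus strand, over 96.8 kb. Exons of 15 of the 38 members overlap another annotated gene, on the same or the opposite strand, and the strand setting of the counting is not given in the sources used here. For those genes, among them Hoxa3, Hoxa7, Hoxa9, Hoxb2, Hoxb5, Hoxc5, Hoxd3 and Hoxd4, a value may include fragments of the overlapping gene.

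Promoters are shown for 5 members on which the results turn: Hoxb4, Hoxa5 and Hoxa2, which rose in the motor neuron cultures, Hoxa7, detected in 2i cells, and Hoxb1, detected in male Epi cells. Each stretch is the 250 bases before the RefSeq start on GRCm38.p6, cut short for Hoxa7 and Hoxb1 where an annotated exon begins. All are written 5′ to 3′ on the strand of the gene, and capitals mark matches to 6 short motifs on either strand: TATAAA (the TATA box), CCAAT (the box that NF-Y binds), AGGTCA (half-site of nuclear receptors such as the retinoic acid receptors), TGATTNAT (Pbx and Hox site), TGACAG (Meis site) and TTTATG (Cdx site).
Hoxb4, chr11:96318017-96318266, plus strand: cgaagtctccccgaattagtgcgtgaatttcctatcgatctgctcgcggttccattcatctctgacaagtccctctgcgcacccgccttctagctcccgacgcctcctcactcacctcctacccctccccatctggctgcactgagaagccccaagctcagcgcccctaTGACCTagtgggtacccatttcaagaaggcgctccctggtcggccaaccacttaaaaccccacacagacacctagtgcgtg
Hoxa5, chr6:52204588-52204837, minus strand: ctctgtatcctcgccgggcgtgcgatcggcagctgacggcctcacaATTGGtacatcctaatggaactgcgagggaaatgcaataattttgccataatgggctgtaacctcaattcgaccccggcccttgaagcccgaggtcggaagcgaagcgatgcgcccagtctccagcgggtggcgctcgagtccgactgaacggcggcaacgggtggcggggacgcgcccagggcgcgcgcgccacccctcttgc
Hoxa2, chr6:52164832-52165081, minus strand: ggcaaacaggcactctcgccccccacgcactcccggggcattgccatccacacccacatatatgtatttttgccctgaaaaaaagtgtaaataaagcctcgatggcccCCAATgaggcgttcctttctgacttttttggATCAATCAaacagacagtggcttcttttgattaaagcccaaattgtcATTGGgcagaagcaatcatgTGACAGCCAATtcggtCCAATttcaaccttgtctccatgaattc
Hoxa7, chr6:52218712-52218823, minus strand: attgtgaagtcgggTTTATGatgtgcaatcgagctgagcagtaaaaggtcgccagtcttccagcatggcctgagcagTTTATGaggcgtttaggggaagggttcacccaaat
Hoxb1, chr11:96365508-96365751, plus strand: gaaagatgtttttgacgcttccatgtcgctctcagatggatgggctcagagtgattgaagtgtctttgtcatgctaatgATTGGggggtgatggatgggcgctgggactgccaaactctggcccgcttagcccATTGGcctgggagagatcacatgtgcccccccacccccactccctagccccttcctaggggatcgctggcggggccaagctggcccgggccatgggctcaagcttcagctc
Hoxb4 holds 1 nuclear receptor half-site, read on the minus strand as TGACCT, 81 to 76 bases before the start. Hoxa2 holds a Pbx and Hox site and, nearer the start, a Meis site, 44 to 39 bases before the start, which adjoins a CCAAT box. Hoxa7 holds the Cdx site at 2 places. Hoxa5 and Hoxb1 hold only CCAAT boxes, 1 and 2 of them.

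Over all members, 22 of 38 had a promoter in the RefSeq table, with 24 promoters between them. The Cdx site was in 5 of these 24 (20.8%), those of Hoxa7, Hoxb8, Hoxd3, Hoxd4 and Hoxd11, and in 10.8% of all 32851 promoters in the table. The nuclear receptor half-site was in 6 of 24 (25%), those of Hoxb4, Hoxc4, Hoxd3, Hoxd4, Hoxd8 and Hoxd10, against 14.0% of all. The CCAAT box was in 14 of 24 (58.3%) against 33.9%, and the TATA box in 4 of 24 (16.7%) against 12.4%. The Meis site was in 2 of 24 (8.33%) against 15.9%, and the Pbx and Hox site in 2 of 24 (8.33%) against 2.83%. These are counts of letters in a window and were not tested.

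The median number of genes detected per cell lay between 8122 (E3.5) and 10839.5 (female E5.5) across the groups, and read depth is unknown because the files give no counts. Summed FPKM per cell was higher in the motor neuron cultures (medians 1332433 and 1478624) than in the other 6 cultures of their table (793153 to 961113). The labelled cell types were checked against their markers. Pou5f1, a core pluripotency factor, was detected in 98.4% to 100% of the cells of the 2i, serum and first Epi cultures. The female Epi culture kept Zfp42, a marker of naive pluripotency, in 98.7% of cells at a mean of 72.5 FPKM, while in the male Epi culture no cell reached 1 FPKM, and Fgf5, a marker of the primed state, averaged 14.1 FPKM in the female and 144.9 in the male Epi culture. In the motor neuron cultures Isl1, a motor neuron factor, was detected in 43.6% of female and 62.9% of male cells, and Lhx3, a defining factor of spinal motor neurons, in none (a count of 0 allows up to 7.69% and 8.57%). In the embryo groups Pou5f1 was detected in every cell. Trophectoderm markers were present beside it: at E4.5 Cdx2 and Gata3 were each in 20 of 23 cells (means 48.7 and 84.4 FPKM) and Elf5 in 73.9%, and at E3.5 Cdx2 was in 56.5% and Gata3 in 82.6%. Gata6, an endoderm marker, was in 95.7% of E3.5 and 82.6% of E4.5 cells. At E5.5 Cdx2 was in 70% of female and 31.7% of male cells, Elf5 in 70% and 52.4% and Gata3 in 55% and 41.3%. All 6 endoderm markers listed further on were in at least 10% of cells of both E5.5 groups. Among them, Gata6 was in 20% and 23.8%, Sox17 in 100% and 65.1% and Cubn in 100% and 69.8%. The part of such cells in the Hox values was not tested.

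Detection of the cluster genes separated the groups by culture state. At least 1 member was detected in 96.7% of female and 98% of male 2i cells (95% Clopper-Pearson intervals 88.5 to 99.6 and 89.6 to 99.9), but in 47.1% and 51.9% of serum cells (34.8 to 59.6 and 37.6 to 66). The share was 54.4% and 57.1% in the Epi cultures and 94.9% and 91.4% in the motor neuron cultures. These intervals cover counting error over cells only. The 2i and motor neuron cultures thus both had nearly every cell with a member, and serum and Epi cultures about 1 cell in 2.

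**Figure D1:**
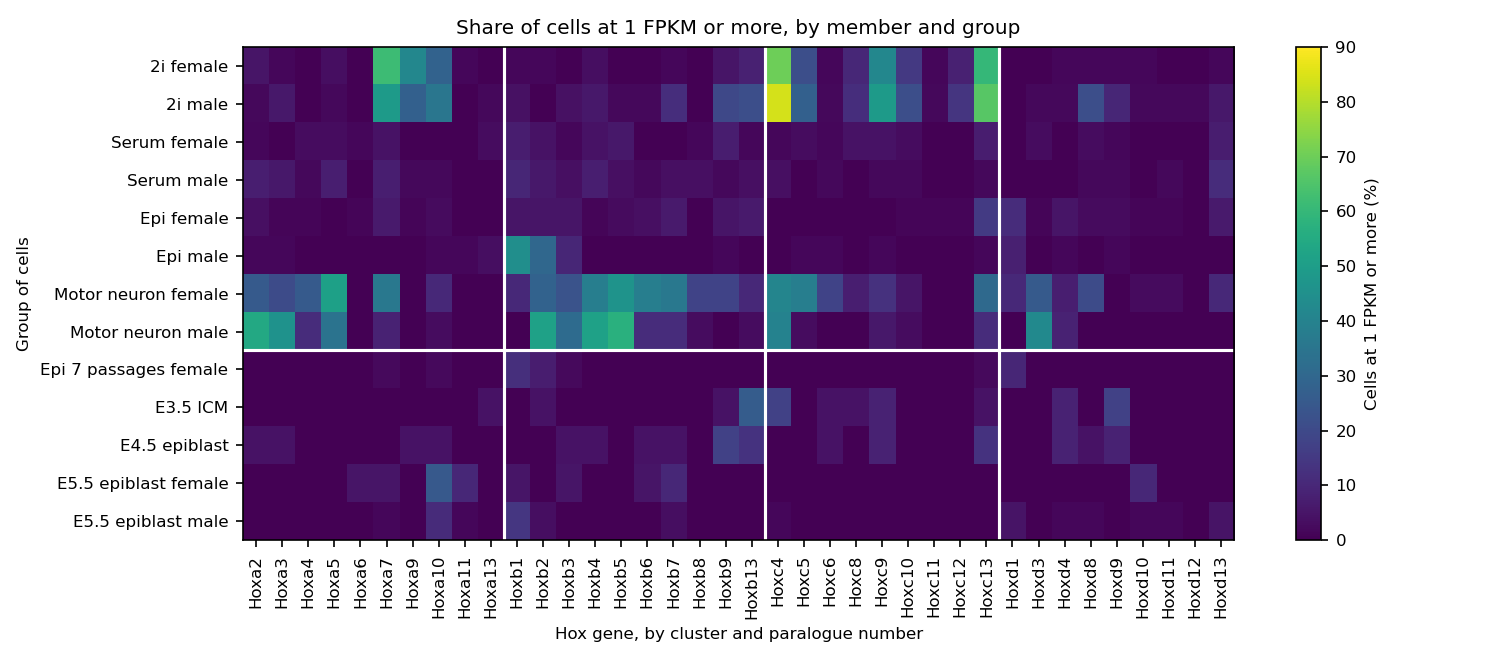
Share of cells at 1 FPKM or more (colour, 0 to 90%) for each of the 38 Hox genes (columns, by cluster and paralogue number) in each of the 13 groups (rows; groups below the line come from separately normalised tables). The 2i rows are bright at Hoxa7, Hoxc4, Hoxc9 and Hoxc13, and the male Epi row at Hoxb1 and Hoxb2. Both motor neuron rows are raised at Hoxa2, Hoxa3, Hoxa5, Hoxb2 to Hoxb5, Hoxc4 and Hoxd3. The female motor neuron row is raised also at Hoxa4, Hoxa7, Hoxb6, Hoxb7, Hoxc5 and Hoxc13, where the male row is low.

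The members involved were not the same in the 2 kinds of culture, as the map of shares by gene shows. In 2i the genes lay in Hoxa and Hoxc: a Hoxc member was detected in 95% and 98% of female and male cells and a Hoxa member in 81.7% and 78.4%, against 12 of 60 and 25 of 51 cells for Hoxb and 8.33% and 35.3% for Hoxd. In the motor neuron cultures a Hoxb member was detected in 71.8% and 68.6% of cells, a Hoxa member in 76.9% and 65.7%, a Hoxc member in 74.4% and 57.1% and a Hoxd member in 38.5% and 45.7%. By paralogue number, the shares of 2i cells with at least 1 member were alike in each part of the clusters. They were 78.3% and 88.2% for numbers 1 to 5, 86.7% and 90.2% for 6 to 9 and 76.7% and 82.4% for 10 to 13. Within these parts the levels were uneven. Paralogue groups 1, 2 and 3, each summed over the clusters, stood between 0.0694 and 0.314 FPKM in the 2i cultures. Group 4 stood at 3.72 and 6.18 FPKM, group 6 at 0.0668 and 0.253 and group 7 at 5.16 and 5.46. The motor neuron cultures of the 2 lines differed from each other by paralogue number, as given further on.

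Within cells, the number of members detected ran from 0 to 10 with a median of 4 in female 2i cells, and from 0 to 14 with a median of 5 in male 2i cells. In serum cells it ran from 0 to 6 (median 0) and 0 to 8 (median 1), and in Epi cells from 0 to 8 and 0 to 4 (median 1 in both). The female motor neuron culture had the widest spread, 0 to 18 with a median of 5, and the male ran from 0 to 11 with a median of 5. The ranges of all groups overlapped at the low end, since every group held cells with no member. Across cells of 1 group, the number of members and the number of all genes detected had Spearman coefficients between -0.06 and 0.58, highest in the male motor neuron and male 2i (0.57) cells. These 2 measures share the library of each cell, and its depth was not separated from the number of members.

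**Figure D2:**
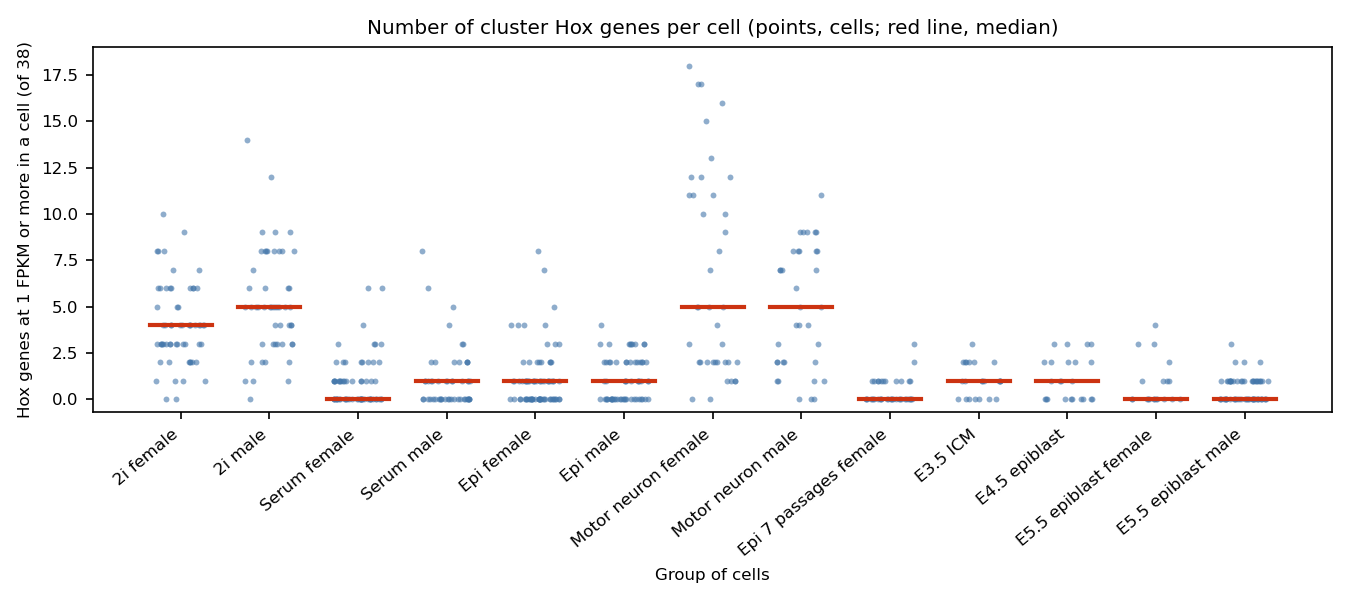
Number of the 38 Hox genes at 1 FPKM or more in each cell (points) by group, with the group median as a red line. Medians are 4 and 5 in 2i and 5 and 5 in the motor neuron cultures and 0 or 1 in all other groups, and the highest cell, with 18, is in the female motor neuron culture.

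The comparison of ES cells in serum with ES cells in 2i asks what the 2 culture media do to the same lines. Hoxc4, a paralogue used from the neck backwards, had mean levels of 3.56 FPKM in the female and 5.92 in the male 2i culture, and 0.0854 and 0.109 in the serum cultures. Hoxa7, a trunk gene, averaged 5.03 and 4.60 in 2i and 0.607 and 0.336 in serum. Hoxa9, a trunk gene also known from blood stem cells, averaged 2.27 and 5.22 in 2i and 0 and 0.468 in serum. For these 3 genes both 2i cultures lay above both serum cultures, and the male Hoxa9 mean is 3.23 without its highest cell, which gave 39.3% of it. Hoxc13, the last gene of its cluster, known for hair follicles, averaged 2.50 and 2.59 in 2i and 0.273 and 0.0552 in serum. Hoxa10 averaged 1.32 and 2.64 in 2i (1.51 in the male line without the cell that gave 43.9%) and 0.0239 and 0.223 in serum, and Hoxc9 1.09 and 1.45 against 0.124 and 0.0474. Hoxc5 followed with 0.959 and 2.05 in 2i and 0.320 and 0 in serum. Here too the 2i and serum cultures did not overlap. All serum means of all 38 members were under 1 FPKM.

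**Figure D3:**
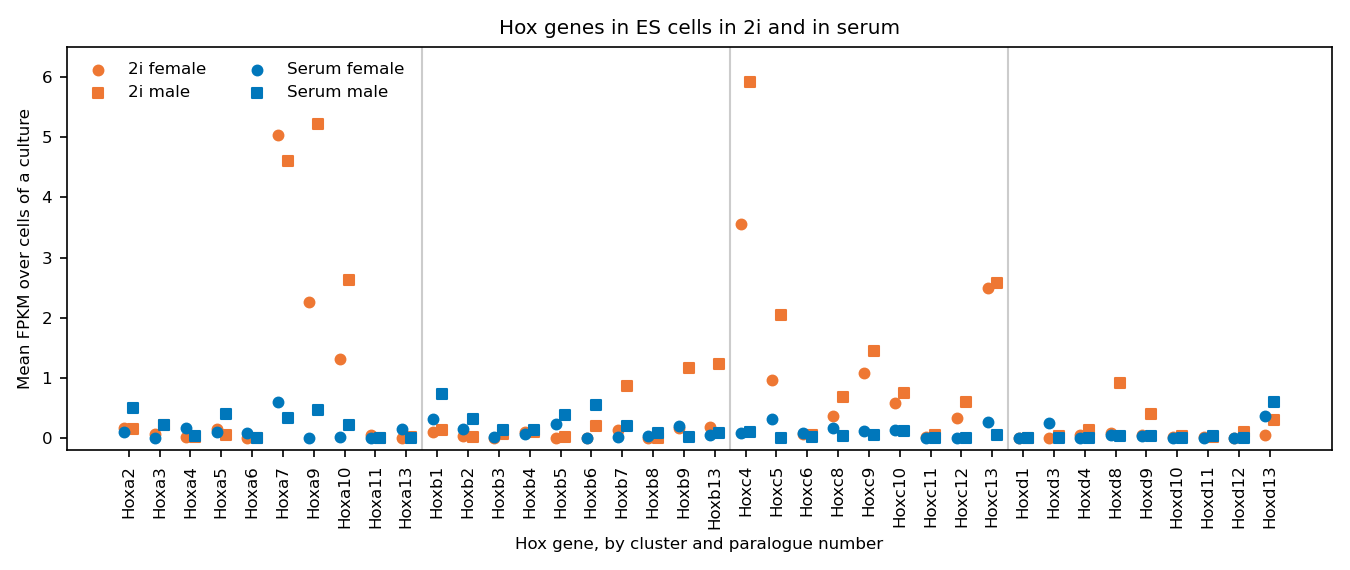
Mean FPKM over the cells of each ES culture (y axis) for the 38 Hox genes (x axis, clusters separated by lines). Orange marks 2i and blue serum, and circles mark the female and squares the male line. Hoxa7, Hoxa9, Hoxa10, Hoxc4, Hoxc9 and Hoxc13 stand between 1 and 6 FPKM in both 2i cultures, and every serum value is under 1 FPKM.

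By share of cells the same genes led. The 3 members detected most often in 2i cells were Hoxc4, in 42 of 60 female and 43 of 51 male cells (intervals 56.8 to 81.2% and 71.4 to 93%), Hoxa7, in 37 and 25 cells, and Hoxc13, in 36 and 34 cells. Hoxc9 was detected in 25 and 25 cells (41.7% and 49%), Hoxa9 in 41.7% and 27.5%, and Hoxa10 in 28.3% and 35.3%. In serum the same 6 genes were each in 0 to 5 cells of 68 and 1 to 4 cells of 52. The most frequent members in serum were Hoxb1, Hoxb9, Hoxc13 and Hoxd13 in the female line, each in 5 of 68 cells, and Hoxd13 (6 of 52 cells), Hoxb1 (5 cells) and Hoxa2, Hoxa5, Hoxa7 and Hoxb4 (4 cells each) in the male line. The male 2i culture also had Hoxb13 and Hoxd8 in 21.6% of cells and Hoxb9 in 19.6%, where the female culture had 5, 1 and 3 cells of 60. Each line is 1 culture, so this difference has no replicate check.

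Detection in 2i cells was scattered from cell to cell rather than fixed as one set. Hoxc4 and Hoxc13, at opposite ends of the Hoxc cluster, were detected together in 25 of 60 female and 31 of 51 male cells, and neither was in 7 and 5 cells. The neighbours Hoxa9 and Hoxa10 were together in 13 and 9 cells, Hoxa9 without Hoxa10 in 12 and 5, and Hoxa10 without Hoxa9 in 4 and 9. Levels stayed low: the highest single 2i cell reached 20.8 and 25.9 FPKM of Hoxc4 in the female and male line and 41.8 and 53.4 FPKM of Hoxa7. The titles of the cells of each 2i culture fall in 2 separate ranges of numbers, and Hoxc4 was detected in both, in 76.7% and 63.3% of the female and 82.8% and 86.4% of the male cells.

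The test across cultures did not call any of these differences. A limma fit with trend over the 8 cultures of the largest table was made on log2(mean FPKM + 1), for genes averaging at least 1 FPKM over those cultures. Called genes had a log2 change of 1 or more in size and a p under 0.05 after Benjamini-Hochberg adjustment over all genes tested. The 2 lines stood in as replicates of each state, line and sex are 1 factor, and the labels do not give repeated cultures, so p-values measure only the spread between these cultures. A culture mean cannot tell fewer cells with a transcript from less transcript per cell. Of the 38 members, 17 passed the filter. From 2i to serum 0 of the 17 were called in either direction, where 0.00645% of the 15504 genes tested were called higher and 0.0129% lower, and 4 of the 17 had an unadjusted limma p under 0.05. These 4 were Hoxc4, with a log2 change (serum minus 2i) of -2.36 (SE 0.43, limma adjusted p 0.129), Hoxa9 with -1.90 (SE 0.45), Hoxa7 with -1.99 (SE 0.64) and Hoxc13 with -1.61 (SE 0.45). The limma adjusted p of these last 3 was 0.202, 0.351 and 0.273. All 4 were lower in serum in both lines. Fitted on the mean over cells of log2(FPKM + 1), 2 of 17 members were called lower, and with only the 4 ES cultures in the fit, 2 of 5. With no filter, 0 of 38 members were called, 9 with an unadjusted limma p under 0.05, where 0.0148% of genes were called higher and 0.0650% lower.

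Genes upstream of the clusters were read in the same cells. Cdx1, which activates trunk Hox genes, averaged 20.03 and 30.96 FPKM in the 2i cultures and was detected in 100% of cells, and averaged 0.806 and 1.06 FPKM in serum, in 11.8% and 13.5% of cells. Its log2 change was -3.75 (limma adjusted p 0.0778). Cdx2 averaged 6.82 and 4.12 FPKM in 2i, in 78.3% and 56.9% of cells, and 0.172 and 0.159 in serum, with a log2 change of -2.44 (limma adjusted p 0.0895). Cdx1 and Cdx2 were thus higher in the 2i than in the serum cultures, as Hoxa7 and Hoxc4 were, and neither Cdx gene passed the test. Cdx4 went the other way, at 0.362 and 0.211 FPKM in 2i and 0.551 and 0.420 in serum. In the embryo cells, normalised separately, Cdx2 averaged 13.7 FPKM at E3.5 and 48.7 at E4.5. Hoxc4 was in 4 and 0 of the 23 cells of these stages, and Hoxa7 in 0 and 0. The part of Cdx in the Hox values was not tested. 2i cells had slightly more genes detected than serum cells (medians 10400 and 10393 against 9443.5 and 9645). The median in female Epi cells was 10409, and Hoxc4 was in 0 of 79 of these cells, which allows a share of up to 3.8%. Read depth is unknown, and its part in the detection of Hox genes was not tested.

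Epi cells were compared with ES cells in serum, and the members at the 3′ end of Hoxb stood out in the male line. By their markers, these cultures did not show a plain step from naive to primed pluripotency. The female Epi culture kept Zfp42, as given above. Sox2, a pluripotency factor, was in 20.63% of male and 91.14% of female Epi cells. Of 6 endoderm markers, 4 were in at least 10% of male Epi cells and 2 in at least 10% of female ones. Among them, Gata4 was in 85.71% and 13.92%. The part of these differences in the Hox values was not tested. Hoxb1, the first Hoxb gene to come on in the primitive streak and later a gene of the hindbrain, averaged 22.7 FPKM in the male Epi culture, of which the highest cell gave 9.22%. The female Epi culture averaged 0.305 and the serum cultures 0.319 (female) and 0.738 (male), so 1 culture of 4 was high. It was detected in 44.4% of male Epi cells (interval 31.9 to 57.5) and in 4 of 79 female Epi cells. Hoxb2, its neighbour, averaged 3.04 FPKM in male Epi cells, in 30.2% of them, and 0.399 in female Epi cells. Hoxb3, the next gene, was in 9.52% of male Epi cells at a mean of 1.25 FPKM, of which 1 cell gave 47.9%. Detection dropped from Hoxb1 through Hoxb2 to Hoxb3, and Hoxb4, Hoxb5, Hoxb6 and Hoxb7 were in 0 of 63 male Epi cells, which allows up to 4.76%.

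Hoxb1 and Hoxb2 occurred together in 15 of the 63 male Epi cells, Hoxb1 alone in 13, Hoxb2 alone in 4 and neither in 31. In the 2 ranges of title numbers of this culture Hoxb1 was in 40.6% and 48.4% of cells. T, Mixl1 and Eomes, genes of the primitive streak chosen after their values were seen, were read in the same cells as a description. T was detected in 28 of 28 male Epi cells with Hoxb1 at a mean of 223.1 FPKM, and in 31 of 35 cells without it at 98.3 FPKM. Mixl1 averaged 771.7 FPKM with Hoxb1 and 418.5 without, and Eomes 50.1 and 41.2. These genes were detected in most male Epi cells whether or not Hoxb1 was.

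The 7-passage female Epi culture, in a table of its own, had Hoxb1 in 12.2% of 41 cells at a mean of 5.27 FPKM, of which 1 cell gave 65.5%. Hoxd1, the matching gene of the Hoxd cluster, was in 9.76% of its cells and Hoxb2 in 7.32%. In the first Epi cultures Hoxd1 was in 11.4% of female and 7.94% of male cells and in no ES cell of either medium. The female Epi culture otherwise had Hoxc13 in 15.2% of cells and Hoxa7, Hoxb7, Hoxb13 and Hoxd13 in 6.33% each. From serum to Epi, 0 of the 17 members tested were called, where 0.0322% of all genes were called higher and 0.00645% lower, and 0 of 17 had an unadjusted limma p under 0.05. With no filter 0 of 38 were called, where 0.0236% of genes were called higher and 0.00295% lower. Hoxb1 had a log2 change (Epi minus serum) of 1.88 (SE 1.34, limma adjusted p 0.744) and Hoxb2 of 0.95 (SE 0.52, limma adjusted p 0.727). The 2 Epi cultures differed in Hoxb1 by more than Epi and serum did on average, and they also differed in Zfp42 and Fgf5 as given above.

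The comparison of motor neuron cultures with serum cultures asks what differed after differentiation; retinoic acid, SAG, embryoid body formation and medium changed together and cannot be told apart. The 4 largest rises were of paralogues 4 and 5 of Hoxa, Hoxb and Hoxc. Hoxb5, which marks the caudal hindbrain and neck levels, averaged 39.9 FPKM in the female (SD over cells 104.9) and 92.7 in the male motor neuron culture (SD 122.5), against 0.241 and 0.380 in serum. Both motor neuron cultures lay above both serum cultures, with a log2 change of 5.56 (SE 0.44, limma adjusted p 0.0021). Hoxa5, needed for phrenic motor neurons of the neck, averaged 36.7 FPKM (SD over cells 65.7) and 21.7 (SD 58.6) against 0.0942 and 0.403 in serum, a log2 change of 4.56 (SE 0.37, limma adjusted p 0.0021). Hoxc4 averaged 22.4 and 10.7 FPKM against 0.0854 and 0.109 in serum, a log2 change of 3.92 (SE 0.43, limma adjusted p 0.0029). In the male culture 1 cell gave 56.6% of the Hoxc4 mean and 1 cell 43.4% of the Hoxa5 mean, and the means without it were 4.79 and 12.6 FPKM. Hoxb4, a gene of the caudal hindbrain whose boundary depends on retinoic acid, averaged 7.77 and 17.04 FPKM against 0.0753 and 0.141, a log2 change of 3.51 (SE 0.42, limma adjusted p 0.0035). These 4 genes were higher in both lines and stayed called in every alternative in which they were tested, the fit with no filter included. Hoxb5, Hoxa5 and Hoxb4 passed the filter only through the motor neuron cultures and so had to differ. Their calls under the filter are therefore no support.

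Among the hindbrain members, Hoxa2, which patterns the anterior hindbrain and the second branchial arch, averaged 6.28 FPKM in the female and 25.2 in the male culture, against 0.0965 and 0.506 in serum. Its log2 change was 3.43 (SE 0.61, limma adjusted p 0.0086), and the call was lost without the female serum culture (limma adjusted p 0.0624). Hoxb2 averaged 10.95 and 10.2 FPKM against 0.146 and 0.325, with a log2 change of 3.23 (SE 0.52, limma adjusted p 0.0066), lost without the female serum culture and with the higher range of title numbers alone. Hoxd3, used in the neck and caudal hindbrain, averaged 2.06 and 15.1 FPKM against 0.249 and 0, a log2 change of 2.65 (SE 0.74, limma adjusted p 0.035). For these 3 genes too the cultures did not overlap, and all 3 passed the filter only through the motor neuron cultures.

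Of the trunk members, Hoxb6 averaged 30.8 FPKM in the female but 2.75 in the male motor neuron culture, against 0 and 0.556 in serum, a log2 change of 3.13 (SE 0.93, limma adjusted p 0.042). Hoxb7 averaged 19.8 and 1.93 FPKM against 0.0129 and 0.204, a log2 change of 2.82 (SE 0.88, limma adjusted p 0.048). With the line as a replicate block Hoxb7 was not called (limma adjusted p 0.0554). Hoxc5, a neck gene whose exons overlap those of Hoxc10, averaged 16.1 and 2.12 FPKM against 0.320 and 0, a log2 change of 2.67 (SE 0.77, limma adjusted p 0.039), and its male mean came from 1 cell at 74.3 FPKM. Their motor neuron cultures also lay above their serum cultures, with the female line far above the male. The other 3 members called were Hoxa3 (log2 change 2.62), Hoxa7 (2.22) and Hoxc13 (1.57), with limma adjusted p between 0.033 and 0.039. Calls of Hoxa3, Hoxa7, Hoxb6, Hoxb7, Hoxc5, Hoxc13 and Hoxd3 held in 8 to 12 of the 22 or 23 alternatives in which each was tested. None of these genes was called with no filter. Hoxa3, Hoxb6, Hoxb7, Hoxc5 and Hoxd3 passed the filter only through the motor neuron cultures and so had to differ.

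In all, 13 of the 17 members tested were called higher, where 30.1% of the 15504 genes tested were called higher, and 0 were called lower, where 2.70% of genes were. Of the 17, 12 passed the filter only through the motor neuron cultures and so had to differ, and the count over the 17 is therefore no support. With no filter, 6 of 38 members were called higher (Hoxa2, Hoxa5, Hoxb2, Hoxb4, Hoxb5 and Hoxc4), where 11.1% of 33861 genes were, and 0 lower, where 0.629% were. The median log2 change over the 38 was 0.81 with no filter and over all genes 0.04. With the filter, the median over all genes was 0.71, so changes are best read against that shift. It was -0.01 after upper-quartile scaling and 0.14 after rescaling each cell to the same sum, and under these 7 and 6 of the 15 members then tested were called higher and 0 lower, where 2054 of 15400 and 2166 of 15273 genes were called higher. The members tested but not called were Hoxa4 (log2 change 2.00, limma adjusted p 0.0523), Hoxb3 (1.90, 0.0530), Hoxb1 (0.42, 0.833) and Hoxa9 (-0.27, 0.659). Without the female serum culture the count of members called fell to 4 of 17, and over the single cultures left out it ran from 4 to 12.

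The 2 motor neuron cultures differed along the clusters. Paralogues 1 to 5 were detected in 74.4% of female and 85.7% of male cells (intervals 57.9 to 87 and 69.7 to 95.2), at a summed mean of 159.2 and 216.6 FPKM. Paralogues 6 to 9 were detected in 74.4% of female but 28.6% of male cells (intervals 57.9 to 87 and 14.6 to 46.3), at 73.3 and 7.47 FPKM. Paralogues 10 to 13 were in 53.8% and 17.1%, at 7.15 and 3.26 FPKM. The summed level of paralogues 1 to 5 was thus not lower in the male culture, and that of the genes from number 6 on was. The low numbers did not all go one way. Summed over the clusters, paralogue group 1 stood at 5.55 FPKM in the female and was listed at 0 in the male culture, and group 2 stood at 17.2 and 35.4. Group 4 stood at 38.4 and 29.4 FPKM, with Hoxc4 lower in the male culture as given above. Paralogue group 3 stood at 5.37 FPKM in the female and 35.4 in the male culture, group 5 at 92.6 and 116.5, group 6 at 32.7 and 2.75, and group 7 at 32.2 and 4.37. With 1 culture per line, line, sex and culture cannot be told apart.

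**Figure D4:**
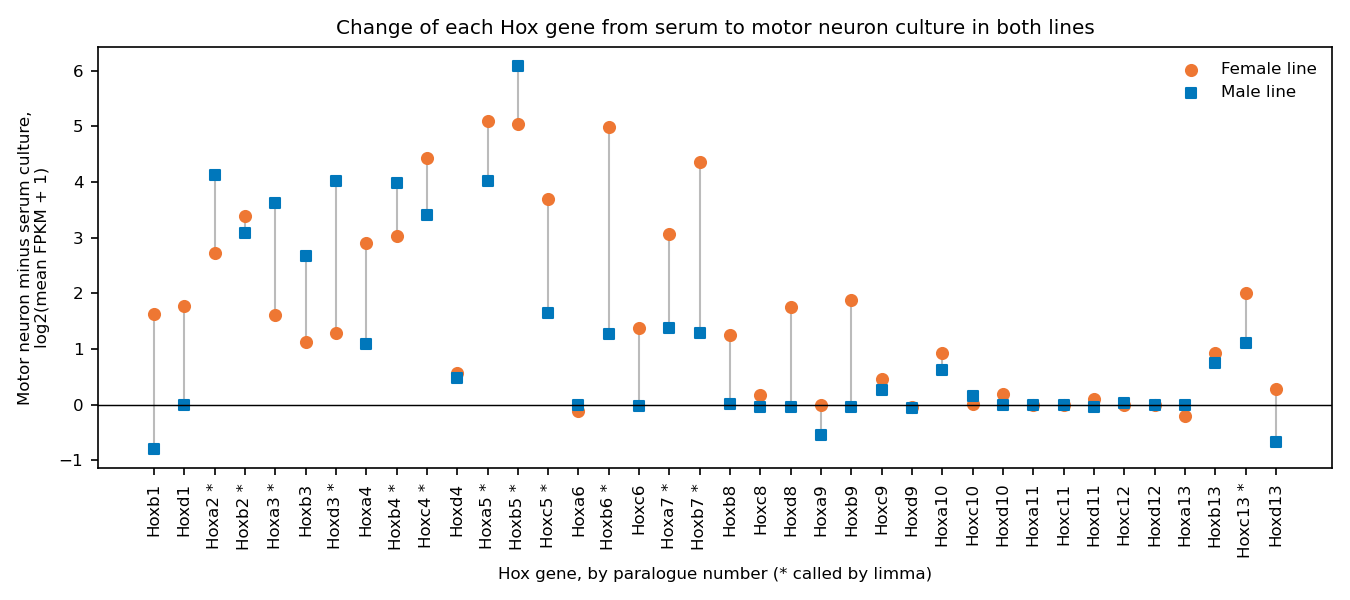
Change of each of the 38 Hox genes from the serum to the motor neuron culture, as a difference of log2(mean FPKM + 1), in the female (orange circles) and male line (blue squares), ordered by paralogue number; * marks members called by limma. Hoxa2, Hoxa3, Hoxb3 and Hoxd3 lie higher in the male line, and Hoxb6, Hoxb7, Hoxc5 and Hoxa7 higher in the female line.

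As the plot of changes in both lines shows, Hoxa2 changed by 2.73 on the log2 scale in the female and 4.12 in the male line, Hoxa3 by 1.61 and 3.63, and Hoxd3 by 1.29 and 4.01. In the other direction, Hoxb6 changed by 4.99 and 1.27, Hoxb7 by 4.36 and 1.28, Hoxc5 by 3.69 and 1.64 and Hoxa7 by 3.07 and 1.37. Hoxb5 (5.04 and 6.08) and Hoxb2 (3.38 and 3.08) were close in both lines. Over the 38 members, 30 had a positive change in the female and 22 in the male line, and 23 had the same sign in both. Members seen in the female motor neuron culture and listed at 0 FPKM in every male cell included Hoxb9 (mean 3.44 FPKM), Hoxb1 (3.09), Hoxd8 (2.55) and Hoxd1 (2.45), each in 4 to 8 of 39 female cells.

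Single cells of these cultures fell into classes by markers of neurons (Tubb3, Map2, Dcx, Stmn2, Snap25) and endoderm (Sox17, Sox7, Foxa2, Gata4, Gata6, Cubn). A cell was put with the neurons at 10 FPKM or more of at least 4 of the 5 neuron markers and with the endoderm at 10 FPKM or more of at least 3 of the 6 endoderm markers, cuts set after the values were seen. In the female culture 8 cells had neuron markers, 13 had endoderm markers and 18 had neither, of which 11 had Pou5f1 at 10 FPKM or more. In the male culture 13 cells had neuron markers, 17 endoderm markers, 4 both and 1 neither. Of the 74 cells, 14 were 1 neuron marker short of the cut. These classes are ranges of a score and not cell types, and the values below describe 2 cultures, with no test.

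Neuron-marker cells had the highest median summed Hox level of the classes in each line. Members per cell had a median of 11 (1 to 17) in the 8 female and 8 (4 to 9) in the 13 male neuron-marker cells, and of 2 in the cells of either line with endoderm markers alone (0 to 3 and 0 to 5). The 4 male cells with both sets had a median of 9 members (5 to 11) and a summed median of 314.2 FPKM. Summed over the 38 members, the median was 793.3 FPKM in female and 397.0 in male neuron-marker cells, against 13.3 and 21.4 in endoderm-marker cells. Female cells with neither set of markers had a median of 9 members (1 to 18) and 149.7 FPKM. Hox genes were therefore also present in female cells outside the neuron-marker class, at lower summed level.

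**Figure D5:**
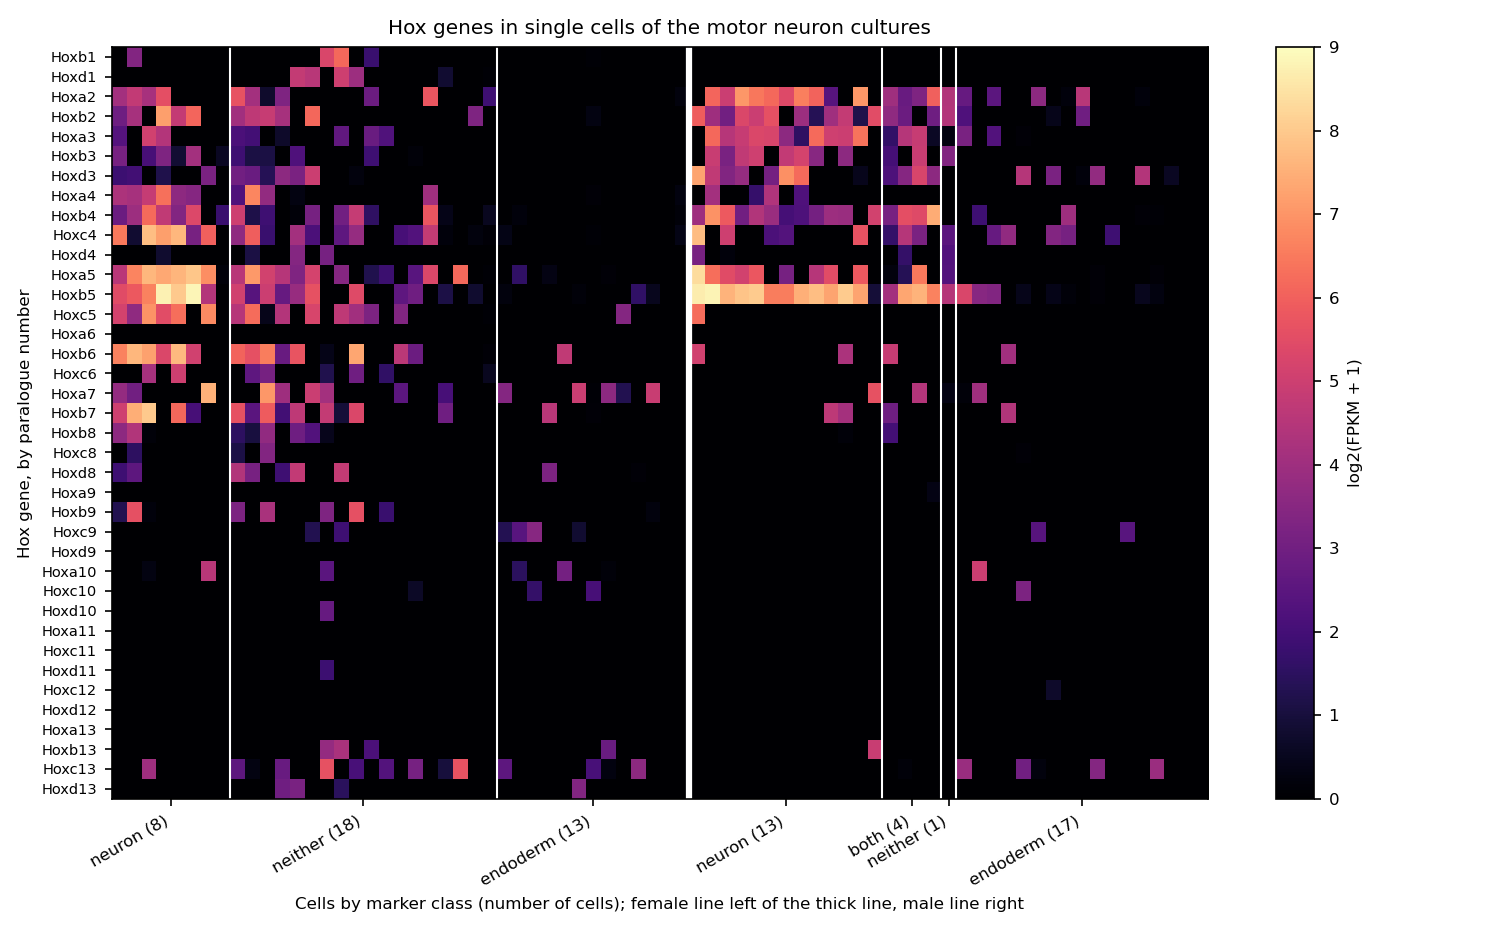
log2(FPKM + 1) of each of the 38 Hox genes (rows, by paralogue number) in each of the 74 single cells of the motor neuron cultures (columns), grouped by marker class, with the female line left of the thick line. Most neuron-marker cells of both lines are bright at Hoxb2, Hoxb4, Hoxa5 and Hoxb5. Hoxa4 and Hoxc4 are bright more often in female and Hoxa3 more often in male neuron-marker cells, and Hoxd4 in few. Hoxb6 and Hoxb7 are bright in female cells, and endoderm-marker cells are mostly dark.

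Hoxb5 was detected in 7 of 8 female and 12 of 13 male neuron-marker cells, at means of 170.1 and 207.3 FPKM, and in 1 of 13 and 3 of 17 endoderm-marker cells. Hoxa5 was in 7 of 8 (130.4 FPKM) and 9 of 13 (51.1 FPKM), and Hoxb4 in 7 of 8 and 12 of 13. These genes were also in female cells with neither set of markers, Hoxa5 in 12, Hoxb5 in 10 and Hoxb4 in 8 of 18, and Hoxb4 and Hoxb5 were in all 4 male cells with both sets. Hoxb6 was in 6 of 8 female neuron-marker cells (90.2 FPKM) and 2 of 13 male ones (3.98 FPKM), Hoxc5 in 6 of 8 and 1 of 13, and Hoxb7 in 5 of 8 and 2 of 13. Hoxa3, a gene of the hindbrain and the third branchial arch, was in 3 of 8 female and 11 of 13 male neuron-marker cells, and Hoxb2 in 5 of 8 and 12 of 13. The difference between the lines along the clusters was therefore present within the neuron-marker cells as well. Paralogues 6 to 9 were detected in 7 of 8 female and 4 of 13 male neuron-marker cells.

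Isl1 was at 10 FPKM or more in 7 of 8 female and 12 of 13 male neuron-marker cells. Hoxc13 did not follow the neuron markers: it was in 1 of 8 and 0 of 13 neuron-marker cells, in 8 of the 18 female cells with neither set, and in 3 of 13 and 4 of 17 endoderm-marker cells. It was not the only such member. Female cells with neuron, endoderm and neither set of markers had Hoxa7 in 3 of 8, 5 of 13 and 6 of 18. Hoxc9 was in 0, 3 and 2 of these cells. Hoxc4 was in 6 of 8 neuron-marker and 0 of 13 endoderm-marker cells of the female line, but in 5 of 13 and 5 of 17 of the male line. Hoxd1 was in 4 cells, all female and with neither set. With the motor neuron cultures summarised over their neuron-marker cells only, 14 of 17 members were called higher, where 5577 of 15624 genes were. Without the endoderm-marker cells 14 of 17 were, where 4383 of 15649 genes were, and without cells of Pou5f1 at 10 FPKM or more 13 of 17, where 5100 of 15511 genes were. These counts of members carry the same limit of the filter as above. Hoxc13 was not called in the first and second of these, and Hoxd3 not in the third.

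Endoderm-marker genes moved with the same comparison. Of the 6 endoderm markers, 5 were tested and 5 called higher in the motor neuron cultures, and the summed level of the 6 had medians of 20.3 and 231.7 FPKM per cell in the female and male culture, against 0 and 0 in serum (ranges 0 to 804.4, 3.08 to 2769, 0 to 17.9 and 0 to 13.8). All 6 were detected in at least 10% of cells of both motor neuron cultures. All 5 neuron markers were called higher and 3 of 4 motor neuron markers tested (Isl1, Slc18a3 and Chat). Of all genes tested, 30.1% were called higher. Sox7, Dcx, Snap25, Isl1, Slc18a3 and Chat passed the filter only through the motor neuron cultures and so had to differ. The part of these cells in the Hox values was not tested.

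Of the 9 listed cofactor genes of the Pbx, Meis and Pknox families, 6 rose in the motor neuron cultures and 0 fell, where 30.1% of all genes were called higher. Meis1, a cofactor that binds beside Hox and Pbx, averaged 52.4 and 97.4 FPKM in the motor neuron cultures against 0.609 and 0.740 in serum, a log2 change of 5.44. Meis1 passed the filter only through the motor neuron cultures. Meis2 averaged 81.4 and 111.1 against 4.27 and 1.37, and Meis3 58.2 and 144.7 against 1.49 and 0.877. Meis1 was detected in all 8 female and 13 male neuron-marker cells, and also in 9 of 13 and 15 of 17 endoderm-marker cells, where few Hox genes were. From 2i to serum and from serum to Epi, 0 of the 9 were called.

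Of the 12 Cdx and retinoid genes, 10 were tested, 4 called higher and 1 lower in the motor neuron cultures, where 30.1% of all genes tested were called higher and 2.70% lower. The retinoic acid degrading enzyme gene Cyp26a1 averaged 88.6 and 40.5 FPKM against 0.576 and 2.67 in serum, and Crabp2, for a retinoic acid binding protein, 183.3 and 561.8 against 44.2 and 30.4. Rarb, a receptor gene that retinoic acid induces, averaged 2.90 and 9.02 FPKM against 0.242 and 0.453. Rarb passed the filter only through the motor neuron cultures. Rarg fell from 23.1 and 33.1 FPKM in serum to 4.22 and 1.33. Cyp26a1 was listed at its highest in the male Epi culture, at 671.7 FPKM, and at 25.9 in the female Epi culture. Cdx1 averaged 1.05 and 0 FPKM in the motor neuron cultures and Cdx2 0.575 and 0.244, so the members detected there were seen in cultures with little Cdx1 and Cdx2, unlike those in 2i.

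Non-coding genes inside the clusters were called in part. Of 17 listed, 9 were tested and 6 called higher in the motor neuron cultures and 0 lower, where 30.1% of all genes tested were called higher and 2.70% lower. Of those called, Hoxaas2, Hoxaas3, Hoxb3os, Hoxb5os and Haglr passed the filter only through the motor neuron cultures and so had to differ. The count is therefore no support. Hoxb5os, antisense to Hoxb5 and sharing exon sequence with it, averaged 79.9 and 72.9 FPKM against 0.449 and 0 in serum, so reads of the pair may be mixed. Hotairm1, at the start of Hoxa, averaged 265.9 and 120.2 FPKM in the motor neuron cultures against 40.8 and 33.1 in serum and 23.6 and 35.95 in 2i. Halr1, near Hoxa, averaged 215.2 and 245.2 FPKM in serum, 24.4 and 67.6 in 2i, 201.4 in female and 2.47 in male Epi cells, and 57.7 and 12.3 in the motor neuron cultures. It was high in serum, where no member averaged 1 FPKM. Mir196b, which lies in an exon of Hoxa9, was listed above 0 only in the 2i cultures, at means of 3.51 and 47.5 FPKM. It was at 1 FPKM or more in 3.33% of female and 7.84% of male 2i cells, smaller shares than those of Hoxa9 given above. In such cells part of the Hoxa9 signal may be shared with it.

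Of 10 listed genes beside the clusters, 8 were tested and 1 called, where 30.1% of all genes tested were called higher and 2.70% lower. The gene called was Smug1 beside Hoxc, at 5.82 and 7.99 FPKM in the motor neuron cultures against 1.35 and 2.73 in serum. Evx1, at the far end of Hoxa, averaged 10.85 FPKM in male Epi cells and 0.428 in female ones, and Evx2, beside Hoxd, was at most 0.0346 FPKM in the 8 cultures. Of 10 forebrain and midbrain genes, 2 were tested and both called lower: Otx2 averaged 22.2 and 23.7 FPKM in serum and 1.53 and 0 in the motor neuron cultures, and Hesx1 6.21 and 3.61 against 0.0471 and 0.

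Cells from embryos carried few members. At E3.5, at least 1 member was detected in 69.6% of 23 cells and at E4.5 in 56.5% of 23, with 0 to 3 members per cell and a median of 1 at both stages. The most frequent at E3.5 were Hoxb13, a tail gene, in 26.1% of cells, and Hoxc4 and Hoxd9 in 17.4% each. At E4.5 they were Hoxb9 in 17.4% and Hoxb13 and Hoxc13 in 13.0% each. No Hox gene was in more than 26.1% of the cells at either stage. Hoxd4 averaged 162.8 FPKM at E3.5, but 99.9% of that came from 1 cell at 3740 FPKM, and the mean was 0.192 FPKM without it. Exons of Hoxd4 overlap those of Hoxd3 and Hoxd3os1, which averaged 0 and 30.6 FPKM at E3.5. Hoxb3 at E4.5, at 2.27 FPKM, likewise had 98.8% from 1 cell.

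At E5.5, at least 1 member was in 8 of 20 female and 28 of 63 male epiblast cells, with 0 to 4 and 0 to 3 members per cell. Hoxa10 was in 5 female and 7 male cells, at means of 0.573 and 0.319 FPKM. Hoxb1 was in 14.3% of male and 1 of 20 female cells, and Hoxd1 and Hoxd13 in 3 of 63 male cells each, while Hoxa11, Hoxb7 and Hoxd10 were in 2 female cells each. Hoxb1 was thus the most frequent member in male E5.5 cells, as in the male Epi and the 7-passage female Epi culture. The tables were normalised separately, so these shares stand side by side only. Members with no detecting cell numbered 27 at E3.5, 22 at E4.5 and 29 and 25 at E5.5, where a count of 0 allows up to 13.0%, 13.0%, 15.0% and 4.76% of cells. In the motor neuron cultures, Hoxa6, Hoxa9, Hoxa11, Hoxa13, Hoxc11, Hoxc12, Hoxd9 and Hoxd12 were the 8 members detected in no cell of either line.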

How the data were processed

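RNA of 617 single mouse cells was sequenced. The deposited values are FPKM per gene and cell in 4 tables, made by the authors. Per the submitters' processing notes, mm10, STAR 2.4.1, Cufflinks and Cuffnorm 2.2.1 were used, with no role or order given. Each table was normalised separately. The files give no counts, so depth is unknown and values near 1 FPKM are imprecise. In 356 values a mistyped exponent was read as a minus sign, the largest being 9.7552e-05 FPKM.

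The 38 members and the gene lists were chosen with earlier results of these data known. The tables hold 1 further cluster gene, which, like some genes of the lists, is not reported here. Gene positions and symbols come from GENCODE vM21 (GRCm38) and promoters from RefSeq (GRCm38.p6). Full statistics are given for the 10 called members with the largest change with the same sign in the 2 lines, and each group's 3 most frequent members are named.

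Cells were averaged per culture, and 8 cultures entered 1 limma fit (limma 3.58.1, R 4.3.3, 4 residual degrees of freedom) on log2(mean FPKM + 1), for the 15504 genes averaging 1 FPKM or more. Shares carry exact Clopper-Pearson 95% intervals. The same cell lines pair the states, per the labels, and the female minus male deviations of 2 states had a Pearson r across genes between 0.06 and 0.16. Alternatives changed the pseudocount (0.1 FPKM), filter, scaling, culture summary, line block, cells and cultures in the fit. Tested on simulated data of the motor neuron comparison, with 200 of 15504 genes changed, the fit recovered 64% of log2 changes of 3, with 10 false calls, and 83.5% of changes of 5, with 14. Python 3.11.15, pandas 2.3.3, scipy 1.17.1 and matplotlib 3.10.9 were used.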

Additional observations from a re-analysis of the deposited data

Results flagged for a closer look

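Hoxb1 moved in opposite directions in the 2 lines from the serum to the motor neuron culture. The change on the log2(mean FPKM + 1) scale was 1.63 in the female line and -0.80 in the male line, the one tested member whose lines differed in sign with both changes above 0.5 in size, over the 3 comparisons. Hoxb1 was in 4 of 39 female motor neuron cells, and 1 cell gave 58.7% of the mean of 3.09 FPKM. In the male line it was in 5 of 52 serum cells and listed at 0 in all 35 motor neuron cells. With 1 culture per line and state, the difference was not tested.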

How the results depend on the processing

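The motor neuron count of 13 of 17 members called higher became 6 of 38 with no filter and 3 of 3 with a filter of 5 FPKM, where fewer genes are tested. It was 7 with the mean over cells of log2 values, 6 of 15 with each cell rescaled to the same sum, 7 of 15 with upper-quartile scaling, and 6 with only the 4 cultures compared. Each culture left out in turn gave 4 to 12, with fewer residual degrees of freedom: 4 without the female serum culture, 6 without the male serum or either 2i culture, 7 and 8 without the male and female Epi culture, and 10 and 12 without the female and male motor neuron culture. With the line as a replicate block it was 13, of which Hoxb7 was not one, and the block changed no count of members in the other comparisons. Other settings gave 9 to 15, the 15 with the 7-passage Epi culture from a separately normalised table. No member was called lower in any.

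From 2i to serum, 2 members were called lower with the mean of log2 values and 2 with only the 4 cultures compared. Every other alternative gave 0, leaving out a culture included (0 to 0). From serum to Epi 0 were called under each.

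Shares of cells with at least 1 member moved with the detection threshold. At 0.1 FPKM they were 100% in both 2i cultures, 60.3% and 69.2% in serum, 70.9% in female Epi, 78.3% at E4.5, and 75% and 61.9% at E5.5. At 5 FPKM they were 76.7% and 84.3% in 2i, 17.6% and 21.2% in serum, 18.99% in female Epi, 82.1% in female motor neuron cells, 13.0% at E3.5, 21.7% at E4.5, and 5.00% and 9.52% at E5.5. Mean members per cell became 1.27 and 1.92 in 2i at 5 FPKM, and 2.00 at E3.5 and 2.96 at E4.5 at 0.1 FPKM.

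Signs turned for 2 uncalled members in the motor neuron comparison, and the cause was not tested. Hoxa9 had a log2 change of 0.012 with the higher range of title numbers and 0.005 without the male serum culture. Hoxb1 had -0.068 with a pseudocount of 0.1, -0.005 with the mean of log2 values, -0.033 over neuron-marker cells only, an alternative added after seeing the data, and -0.598 without the female motor neuron culture.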
